A study of Mus musculus with 20 samples.

Results

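Receptors and enzymes of 3 hormone systems that act on blood vessels and connective tissue were followed in fibroblasts of the mouse heart before and after myocardial infarction (MI). The 7 genes form a list of names, drawn up with earlier results of these data known: Agtr1a, the angiotensin II type 1a receptor; Ace, angiotensin-converting enzyme; Npr1, Npr2 and Npr3, the natriuretic peptide receptors; and Ednra and Ednrb, the endothelin receptors. They are 7 of the 25746 genes in the deposited RNA table, and each symbol matched 1 row. The chromatin data near them are the 91 of 143246 merged ATAC-seq regions that lie in the gene's span or within 50 kb of it.

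The renin-angiotensin system cuts angiotensinogen first with renin and then with ACE, a peptidase of the cell surface, to give angiotensin II, which acts through the G protein-coupled AT1 receptor. The natriuretic peptides ANP and BNP bind NPR1, and CNP binds NPR2; both receptors are guanylyl cyclases that make cyclic GMP, while NPR3 lacks a cyclase and takes the peptides up for degradation. Endothelin-1 is released from its precursor by the protease ECE1 and acts on the G protein-coupled receptors ETA (Ednra) and ETB (Ednrb). In the heart, angiotensin II and endothelin-1 are known as signals that drive fibroblast activation and matrix synthesis, and cyclic GMP made by the natriuretic receptors is known as a signal that opposes them.

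The cells carried a tamoxifen-inducible Cre, MerCreMer, in the Tcf21 lineage, which includes most resident fibroblasts of the heart, and eGFP marked their descendants. Uninjured and infarcted mice received tamoxifen at 75 mg/kg a day for 5 days, so the controls carried the same label and drug. eGFP+ cells were sorted from digested heart tissue, uninjured or 3 days, 7 days, 2 weeks or 4 weeks after MI, with a gate set on eGFP- wild-type cells. RNA came from 10000 sorted cells, and each of the 5 groups had 2 RNA-seq and 2 ATAC-seq libraries, 20 in all. The labels give no ages and do not say if a pair of libraries was made from different mice; p-values thus measure only how these libraries scatter, which may be technical.

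The RNA libraries held 16397211 to 21043997 counts each, and levels are given as CPM, counts scaled to the library total after TMM normalisation. CPM was not divided by transcript length, so it compares libraries for 1 gene and not genes with each other. Fold changes, their standard errors (SE) and p-values come from edgeR's quasi-likelihood test over the 14968 genes that passed a filter on low counts, which all 7 genes passed; a call is a Benjamini-Hochberg adjusted p under 0.05. A list of 10 fibroblast markers summed to 62520 to 65410 CPM in uninjured libraries, 19260 to 31320 at day 3, 35630 to 42040 at day 7, 29190 to 39110 at week 2 and 59670 to 62850 at week 4, so the labelled cell type was present throughout. A list of 12 endothelial markers summed to 573 to 730 CPM in uninjured libraries, 199 to 300 at day 3, 854 to 1122 at day 7, 711 to 758 at week 2 and 564 to 573 at week 4. A list of 12 macrophage and monocyte markers summed to 73.8 to 78.5 CPM in uninjured libraries, 639 to 1060 at day 3, 1612 to 2853 at day 7, 460 to 505 at week 2 and 157 to 229 at week 4. In sorted bulk samples such as these, fewer cells of a type and less RNA per cell cannot be told apart.

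Members of all 3 systems were detected, and the changes that passed the test were few. Npr2 fell at day 3, Ednra rose at day 7, and Ace and Npr2 were higher at week 4 than at day 3. At day 3, 1 of the 7 genes was called, against 11.8% of all tested genes. At day 7 it was 1 of 7, against 7.15%. At week 2 edgeR called none of the 7, against 1.89% of all tested genes; Ednrb alone had an unadjusted p under 0.05 and DESeq2 called it. At week 4 edgeR also called none of the 7, against 2.32%; Ace alone had an unadjusted p under 0.05 and DESeq2 called it. Between week 4 and day 3, 2 of the 7 were called, against 13.4%. The median log2 fold change of the 7 genes against uninjured was -0.88 at day 3, -0.06 at day 7, -0.07 at week 2 and 0.20 at week 4, where the median of all tested genes lay between -0.0206 and 0. Any difference among the 5 groups was called for 2 of the 7, Ace and Npr2, against 15.7%. The mean of the 4 times against uninjured gave no call among the 7, against 4.96%; Ednra and Ednrb had an unadjusted p under 0.05, and DESeq2 called Ednrb. Between day 7 and day 3, week 2 and day 7, week 4 and week 2, and week 4 and day 7, edgeR called none of the 7, against 1.38%, 0.648%, 0.608% and 2.42% of tested genes. In those 4 comparisons 2, 0, 2 and 2 of the 7 had an unadjusted p under 0.05, and DESeq2 called 1 (Npr2), 0, 1 (Ace) and 1 (Ace).

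**Figure D1:**
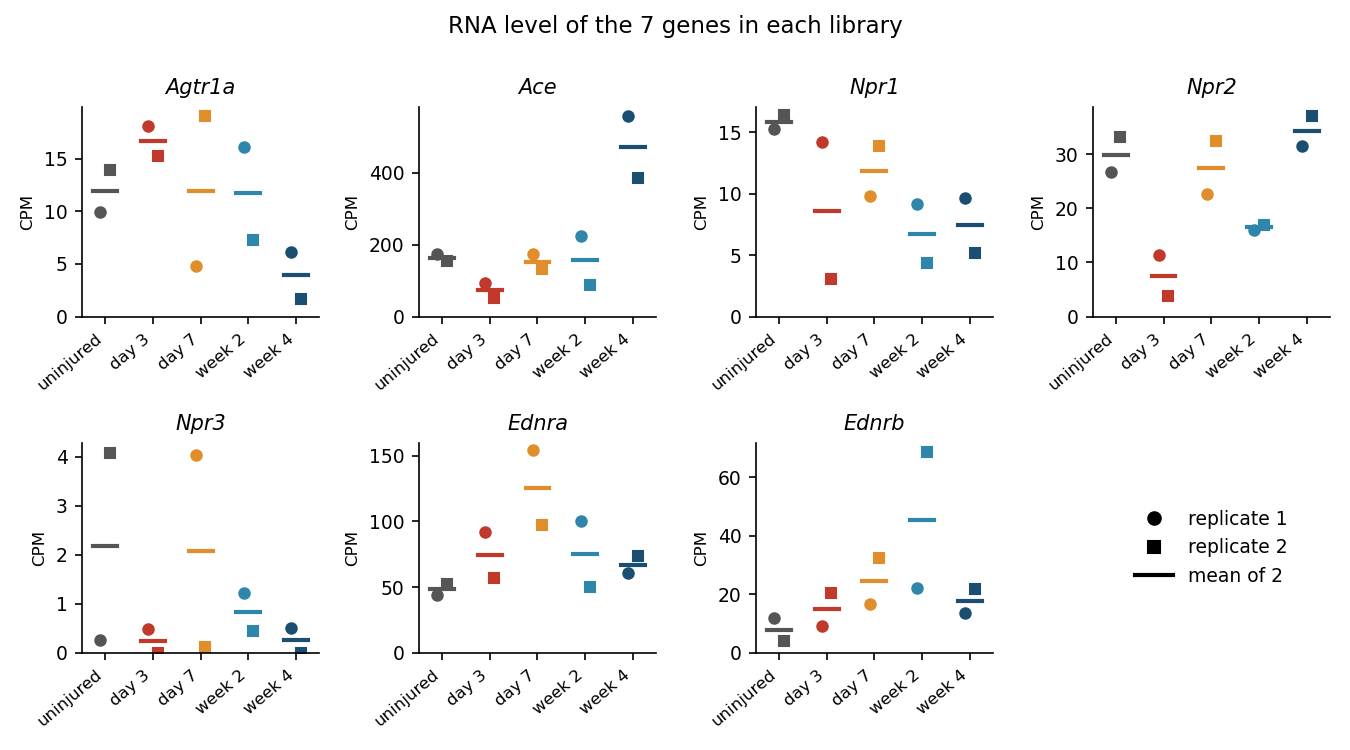
RNA level (CPM, each axis starting at 0) of the 7 genes in uninjured hearts and 4 times after MI; circles and squares are replicates 1 and 2 and the bar is their mean. Ace is lowest at day 3 and highest at week 4, Npr2 is lowest at day 3, Ednra is highest at day 7 and Ednrb at week 2.

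**Figure D2:**
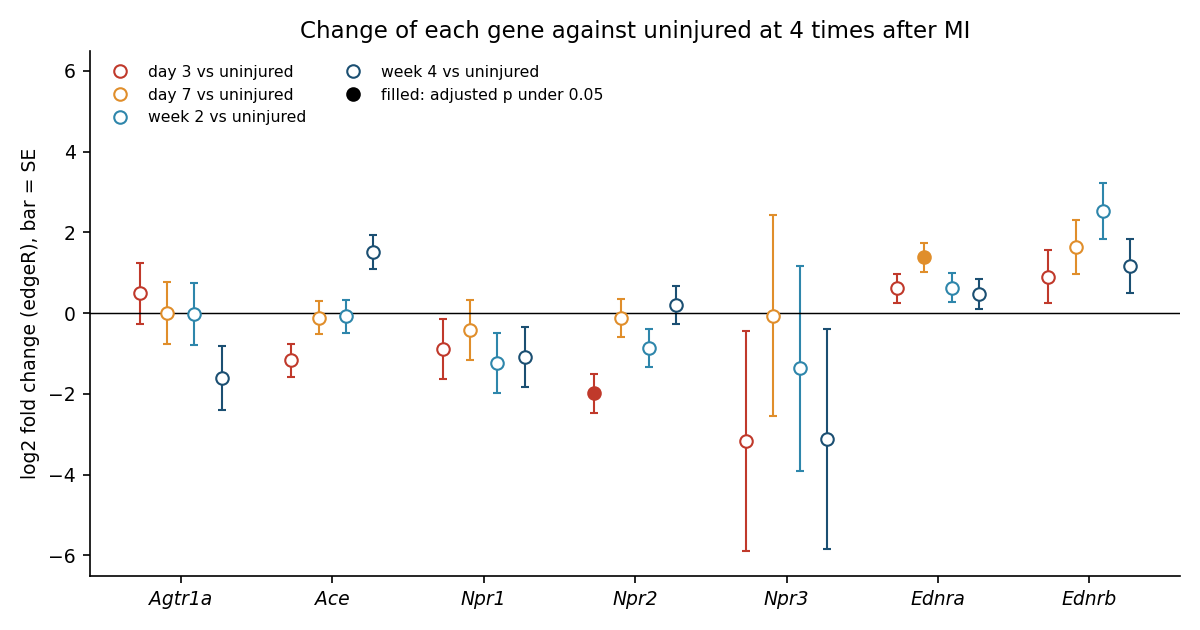
edgeR log2 fold change against uninjured for each gene at 4 times after MI, with the SE as a bar; filled points have an adjusted p under 0.05. The only filled points are Npr2 at day 3 (-1.98) and Ednra at day 7 (1.38), and the bars of Npr3 are the widest.

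Ace RNA was low at day 3 and high at week 4. Ace makes angiotensin II and also degrades bradykinin; the gene (ENSMUSG00000020681) spans chr11:105967945-105989964 in the deposited table. The uninjured libraries held 172.9 and 155.3 CPM, and the day 3 libraries 93.8 and 52.3 CPM. The day 7 libraries held 172.8 and 131 CPM, and the week 2 libraries 224.6 and 87.3 CPM. Both of these times overlapped the uninjured range, and the week 2 pair was spread widely around it. The week 4 libraries held 557.1 and 383.9 CPM, the highest of the 10. In order of mean, the groups ran day 3, day 7, week 2, uninjured and week 4, and day 7, week 2 and uninjured did not differ beyond their spread. Ace differed among the 5 groups (adjusted p = 0.00984, edgeR), and was 6.44-fold higher at week 4 than at day 3 (log2 fold change 2.69 ± 0.44 SE, adjusted p = 0.00336). That call held when any 1 of the 10 libraries was dropped, with log2 fold changes from 2.34 to 3.17.

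Against uninjured hearts the same gene came near the threshold in both directions. At day 3 the log2 fold change of Ace was -1.17 ± 0.42 (SE, adjusted p = 0.101, edgeR), and at week 4 it was 1.52 ± 0.42 (adjusted p = 0.107). DESeq2 called both (adjusted p = 0.0211 and 0.00611), and so did edgeR without week 2 replicate 1 or without week 2 replicate 2, the pair that differed most. The groups did not overlap at either time. Non-overlap of 2 against 2 libraries is common here: it held for 60.0% of tested genes at day 3 and 51.3% at week 4, and for 5 of the 7 genes at each of these times. Ace is known as an endothelial enzyme. The endothelial marker sum was 563.8 and 573.4 CPM at week 4, against 729.7 and 572.6 CPM in uninjured libraries. Tek made up much of that sum and fell (255.6 to 95.3 CPM, mean of 2). Without Tek the sum was 468.6 and 478 CPM at week 4, above the uninjured 440.4 and 350.7 CPM. Of the 12 markers, 9 had a higher and 3 a lower mean at week 4 than in uninjured libraries. Among the 9 were Cdh5 (9.66 to 24.3 CPM) and Kdr (31.6 to 52.1 CPM). Of the 12, edgeR called 1 lower and none higher at week 4, where 3 had an unadjusted p under 0.05 and DESeq2 called 1. At day 3 the sum of the 12 was 199 to 300 CPM. All 12 means were lower than in uninjured libraries, as that of Ace was. The part of endothelial cells in the Ace values was not tested at any time.

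The chromatin at the Ace start had a peak in all 10 libraries. ATAC-seq marks DNA open to the Tn5 transposase, and a peak list gives where each library's reads pile up, so its presence was compared and its height was not. The fold enrichment of this peak, the authors' value within each list, ranked above 88.3% to 92.5% of the peaks of its own list. A peak in all 10 libraries was found at 46.0% of RefSeq gene starts. RefSeq lists an internal Ace start as well, at position 105975189 of chromosome 11, and a peak lay there in only 1 library, day 7 replicate 1, at percentile 3.6 of its list. The 250 bases before the main start are shown because they lie under that constant peak and held 4 matches to GGGCGG, the letters bound by SP and KLF factors, beginning 140, 136, 75 and 18 bases before the start. They are from RefSeq (GRCm38.p6), chr11:105967698-105967947, plus strand, with the matches in capitals.
Ace: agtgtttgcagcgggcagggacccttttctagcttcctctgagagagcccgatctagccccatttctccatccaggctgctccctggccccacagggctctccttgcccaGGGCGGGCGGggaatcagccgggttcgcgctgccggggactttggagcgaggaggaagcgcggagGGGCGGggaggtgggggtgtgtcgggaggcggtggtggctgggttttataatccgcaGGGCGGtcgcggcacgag
The first 2 matches share letters, and 33.0% of 32609 RefSeq promoter windows of the same length held at least 1 match on either strand. GC content was 67.2%, against a median of 52.4% over those windows.

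Agtr1a, the receptor through which angiotensin II signals, showed no call. The gene (ENSMUSG00000049115) spans chr13:30336441-30382867. The uninjured libraries held 9.915 and 13.9 CPM, and the day 3 libraries 18.2 and 15.3 CPM. At day 7 they held 4.82 and 19.1 CPM, at week 2 16.1 and 7.31 CPM, and at week 4 6.19 and 1.66 CPM. Both day 3 libraries lay above both uninjured libraries and both week 4 libraries lay below them, while day 7 and week 2 straddled them. Such non-overlap held for 60.0% of tested genes at day 3 and 51.3% at week 4. By mean the order was week 4, week 2, uninjured, day 7 and day 3, and the middle 3 means, at 11.7 to 11.9 CPM, did not differ beyond their spread. The log2 fold change was -1.61 ± 0.79 (SE) at week 4 against uninjured (adjusted p = 0.432, edgeR). At week 4 against day 3 it was -2.10 ± 0.80 (adjusted p = 0.108, edgeR), and DESeq2 called this difference (adjusted p = 0.0434). So the Agtr1a value and the Ace value differed in sign in this comparison. Across the 10 libraries their log2 CPM had a Pearson correlation of -0.58, which is a description over libraries of 5 shared groups.

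Of 15 other genes of the renin-angiotensin list, 13 were tested. edgeR called 1 of the 13 at day 3 and 1 at day 7, against 11.8% and 7.15% of all tested genes. At these times 2 and 4 of the 13 had an unadjusted p under 0.05, and DESeq2 called 1 and 4. Nr3c2, the mineralocorticoid receptor through which aldosterone acts, was the only one called at day 3. It held 16.7 and 17.9 CPM in the uninjured libraries, 0.772 and 0.832 CPM at day 3, 3.99 and 4.28 CPM at day 7, 12.5 and 12.7 CPM at week 2 and 23.95 and 11.25 CPM at week 4. Nr3c2 fell at day 3 by 4.42 ± 0.66 (log2, SE; adjusted p = 0.00148, edgeR), and the call was kept with each library left out. At day 7 the 1 call was Prcp, a carboxypeptidase that cuts angiotensin II, which rose by 1.29 ± 0.32 (log2, SE; adjusted p = 0.0287); this did not hold when either uninjured library or day 7 replicate 2 was dropped. edgeR called none of the 13 at week 2 or week 4, against 1.89% and 2.32% of all tested genes. At each of these times 2 of the 13 had an unadjusted p under 0.05 and DESeq2 called 1. Over the mean of the 4 times, 2 of the 13 were called, both lower, against 4.96% of all tested genes called in either direction. They were Nr3c2 and Mme (log2 fold change -1.73 and -2.63, adjusted p = 0.0273 and 0.0481, edgeR). Mme encodes neprilysin, a peptidase that degrades natriuretic peptides and angiotensins, and is named after its values were seen. Ren1, renin, had no count in any library. Agt, the precursor, had 0 to 96 counts and was not called at any time.

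Npr2 RNA fell at day 3. Npr2, the CNP receptor (ENSMUSG00000028469), spans chr4:43631935-43651244. The uninjured libraries held 26.65 and 33.1 CPM, and the day 3 libraries 11.3 and 3.83 CPM. The day 7 libraries were back within reach of the uninjured ones at 22.6 and 32.4 CPM, the week 2 libraries held 16.04 and 16.9 CPM, and the week 4 libraries 31.5 and 37.0 CPM. The groups did not overlap at day 3 or week 2, and overlapped at day 7 and week 4. Such non-overlap held for 60.0% of tested genes at day 3 and 41.7% at week 2. The order of means was day 3, week 2, day 7, uninjured and week 4, and the last 3 did not differ beyond their spread. Npr2 differed among the 5 groups (adjusted p = 0.0437, edgeR).

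At day 3 Npr2 was 3.96-fold lower than in uninjured hearts (log2 fold change -1.98 ± 0.49 SE, adjusted p = 0.0201, edgeR). It did not hold when uninjured replicate 2 was dropped (adjusted p = 0.0891), nor when day 3 replicate 2 was (adjusted p = 0.139), and the log2 fold change ran from -2.97 to -1.43 over the libraries left out. At week 4 Npr2 was 4.54-fold higher than at day 3 (log2 fold change 2.18 ± 0.49 SE, adjusted p = 0.0123); this call was lost without day 3 replicate 2 (adjusted p = 0.0862) and without week 4 replicate 2. Marker sums of 3 cell types were also low at day 3: the fibroblast list at 19260 to 31320 CPM, the endothelial list at 199 to 300 CPM, with Tie1 and Vwf at 0 in day 3 replicate 2, and a list of 11 pericyte and smooth muscle markers at 187 to 279 CPM against 540 to 1018 CPM in uninjured libraries. In the fibroblast list the fall lay in Gsn (29300 to 2348 CPM, mean of 2) and Dcn (21950 to 6938 CPM), and of the 10 genes 5 were called lower and 3 higher at day 3, the latter Col1a1 (658.9 to 4932 CPM), Col1a2 and Thy1. Rgs5 led the pericyte sum, which without it was 151.4 to 172.7 CPM at day 3 and 258.4 to 281.2 CPM in uninjured libraries. The part of these cells in the Npr2 result was not tested.

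Npr1, the receptor for ANP and BNP, was lower in every library after MI than in both uninjured ones, without a call. The gene (ENSMUSG00000027931) spans chr3:90450591-90465866. The uninjured libraries held 15.25 and 16.4 CPM. The later libraries held 14.2 and 3.05 CPM at day 3, 9.79 and 13.9 CPM at day 7, 9.16 and 4.33 CPM at week 2 and 9.65 and 5.21 CPM at week 4. It was the only one of the 7 genes for which all 8 libraries after MI lay on one side of both uninjured libraries, which held for 9.71% of tested genes. The log2 fold changes of Npr1 were -0.88 at day 3, -0.42 at day 7, -1.23 at week 2 and -1.09 at week 4, with SEs of 0.74 to 0.75, and edgeR's adjusted p was 0.507 or above at each time. The mean of the 4 times differed from uninjured by -0.90 ± 0.55 (SE, adjusted p = 0.435).

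Npr3, the clearance receptor, was near the limit of detection. The gene (ENSMUSG00000022206) spans chr15:11839896-11907287. It had 5 and 76 counts in the uninjured libraries, 8 and 0 at day 3, 82 and 2 at day 7, 22 and 8 at week 2 and 8 and 0 at week 4. The pairs differed from each other by as much as the groups did. A count of 0 allows a level of up to 0.166 CPM in day 3 replicate 2 and 0.146 CPM in week 4 replicate 2, taken as 3 counts and covering counting error only. The SEs of its log2 fold changes were 2.49 to 2.73, and no difference in Npr3 was detectable with pairs that scattered this widely. The ratios of Npr3 to Npr2 and of Npr1 to Npr2 within a library did not separate the 2 uninjured from the 8 later libraries (exact two-sided permutation p = 0.622 and 0.644, both 0.644 after adjustment over 3 ratios, where the smallest p the design allows is 0.0222).

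All 3 natriuretic receptor genes had a peak at the start in all 10 libraries. That of Npr3 was thus listed also at day 3 and week 4, the groups in which 1 RNA library had no Npr3 count; RNA and ATAC libraries are separate samples. Within each list the start peak of Npr1 ranked at percentile 83.1 to 90.2 of fold enrichment, that of Npr2 at 78.7 to 84.6, and that of Npr3 at 68.5 to 86.4. The day 3 lists placed the Npr2 start peak at percentiles 80.4 and 83.7. A percentile moves with the length of its list, and the lists held 63882 and 71878 peaks in uninjured and 105647 and 107774 at day 3. Whether the Npr2 start peak changed between groups was not tested. The 250 bases before the Npr2 start are shown as the promoter of the gene that fell. They are from RefSeq (GRCm38.p6), chr4:43631685-43631934, plus strand, and the capitals mark CAGCTG, an E-box of the type bound by basic helix-loop-helix factors, 159 bases before the start.
Npr2: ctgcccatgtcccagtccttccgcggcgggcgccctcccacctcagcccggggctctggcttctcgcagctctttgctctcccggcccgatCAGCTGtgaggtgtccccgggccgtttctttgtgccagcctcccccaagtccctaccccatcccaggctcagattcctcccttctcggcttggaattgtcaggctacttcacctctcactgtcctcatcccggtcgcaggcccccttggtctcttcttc
CAGCTG, which reads the same on both strands, was found in 13.1% of RefSeq promoter windows of this length. The Npr1 window (chr3:90465867-90466116, minus strand) held TGTGGT, a RUNX motif found with TGCGGT in 18.5% of windows, and a pair of GGGCGG matches on the opposite strand; the Npr3 window held none of the motifs searched, which were TGANTCA for AP-1, TGTGGT and TGCGGT for RUNX, CATTCC for TEAD, CAGCTG, the CArG box of SRF and GGGCGG.

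Among the ligands and downstream enzymes, Nppa rose and Pde9a fell at all 4 times. Of 19 genes on the natriuretic peptide and cyclic GMP list, 18 were tested, and 1 rose and 1 fell at each of the 4 times. Of all tested genes, 11.8% were called at day 3, 7.15% at day 7, 1.89% at week 2 and 2.32% at week 4. In the same order 5, 8, 5 and 7 of the 18 had an unadjusted p under 0.05, and DESeq2 called 2, 4, 3 and 5. The gene that rose was Nppa, which encodes ANP, the ligand of NPR1. It held 0.906 and 1.66 CPM in the uninjured libraries, 14.1 and 3.49 CPM at day 3, 15.4 and 8.80 CPM at day 7, 38.1 and 42.2 CPM at week 2, and 11.3 and 8.53 CPM at week 4, so all 8 later libraries lay above both uninjured ones. The log2 fold change of Nppa was 4.96 ± 0.74 (SE) at week 2 (adjusted p = 0.00392, edgeR), kept with each library left out, and 2.77, 3.23 and 2.94 at day 3, day 7 and week 4 (adjusted p = 0.0202, 0.0158 and 0.0447). The day 3 call did not hold when either uninjured library or day 3 replicate 1 was dropped, nor the day 7 call when uninjured replicate 1 was. The week 4 call was lost without either library of the uninjured, week 2 or week 4 group. Nppa is abundant in cardiomyocytes, and the summed level of 9 cardiomyocyte markers was 160 to 197 CPM in uninjured libraries and 42.5 to 152 CPM in those after MI. The part of these cells in the Nppa values was not tested.

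Pde9a, a phosphodiesterase that breaks down cyclic GMP, was the gene of this list that fell. It held 68.6 and 64.1 CPM in the uninjured libraries and 6.38 to 20.3 CPM in the 8 later ones. The log2 fold changes of Pde9a were -1.86, -2.72, -2.59 and -2.57 at day 3, day 7, week 2 and week 4 (adjusted p = 0.0242, 0.00628, 0.0158 and 0.0166, edgeR). The day 3 and week 4 calls were lost without either library of the uninjured group or of their own group, the day 7 call without day 7 replicate 2, and the week 2 call without either uninjured library or week 2 replicate 1. Nppb (BNP) had 0 counts in both uninjured libraries and 0 to 22 counts in the later ones, and Nppc (CNP), the ligand of NPR2, had 32 and 79 counts in uninjured libraries and 5 to 25 later; neither was called. Corin and Furin, proteases that process natriuretic precursors, were not called either: Corin had 0 to 60 counts, and Furin held 14.2 to 44.4 CPM. The median log2 fold change over the 18 tested genes was -0.26, 0.03, 0.08 and 0.50 at the 4 times.

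**Figure D3:**
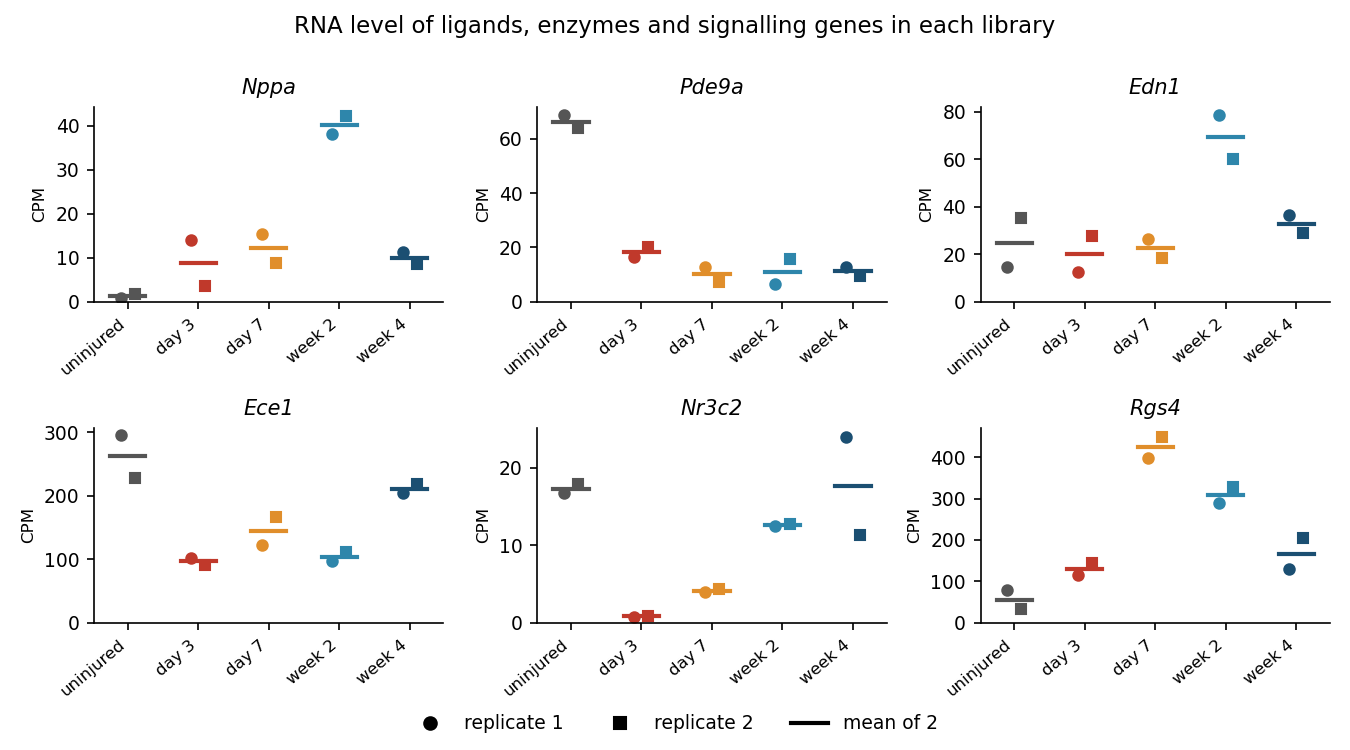
RNA level (CPM, each axis starting at 0) of Nppa, Pde9a, Edn1, Ece1, Nr3c2 and Rgs4 in each library; circles and squares are replicates 1 and 2 and the bar is their mean. Nppa and Rgs4 lie above, and Pde9a below, both uninjured libraries at every later time, Nr3c2 is lowest at day 3 and Ece1 is lower than uninjured at all 4 times, though not called at week 4.

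Ednra RNA rose at day 7. Ednra (ENSMUSG00000031616), the ETA receptor, spans chr8:77663031-77724464. The uninjured libraries held 44.1 and 52.5 CPM, the day 3 libraries 91.7 and 56.5 CPM, and the day 7 libraries 154.3 and 97.3 CPM. At week 2 they held 100.4 and 49.7 CPM, and at week 4 60.8 and 73.5 CPM. The groups did not overlap at day 3, day 7 or week 4, and 1 of the 2 week 2 libraries fell within the uninjured range; non-overlap held for 55.0% of tested genes at day 7. Uninjured had the lowest mean, then week 4, day 3, week 2 and day 7, and neighbours in that order overlapped except uninjured and week 4. At week 4 the log2 fold change against uninjured was 0.47 ± 0.36 (SE, adjusted p = 0.656, edgeR), without a call. Non-overlap with uninjured held for 60.0% of tested genes at day 3 and 51.3% at week 4.

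At day 7 Ednra was 2.603-fold higher than in uninjured hearts (log2 fold change 1.38 ± 0.37 SE, adjusted p = 0.04, edgeR). The call was lost when either uninjured library, either day 7 library or week 4 replicate 2 was left out, with log2 fold changes from 0.99 to 1.66. Pericyte and smooth muscle markers, cells in which Ednra is known to be expressed, summed to 744 CPM in day 7 replicate 1 and 1090 CPM in day 7 replicate 2, against 1018 and 540 CPM in the uninjured libraries. Rgs5 made up 52.1% to 72.4% of these 4 sums. Of the 11 markers, 8 had a higher and 3 a lower mean at day 7 than in uninjured libraries, with a median log2 fold change of 0.645. Of these 11, edgeR called none, 3 had an unadjusted p under 0.05 and DESeq2 called 3. The 8 with a higher mean included Cspg4 (1.92 to 12.8 CPM, mean of 2), Mcam (2.05 to 17.8 CPM) and Cnn1 (5.15 to 35.4 CPM). Ednra was the higher of the pair in the day 7 library with the lower sum and in the uninjured library with the lower sum; the part of these cells was not tested. The mean of the 4 times differed from uninjured by 0.78 ± 0.30 (SE, adjusted p = 0.184).

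Ednrb, the ETB receptor, had levels above both uninjured libraries at day 7, week 2 and week 4, and none of these differences passed edgeR's threshold. The gene (ENSMUSG00000022122) spans chr14:103814625-103844402. The uninjured libraries held 11.7 and 4.02 CPM and the day 3 libraries 9.14 and 20.4 CPM, which overlapped. The day 7 libraries held 16.8 and 32.5 CPM, the week 2 libraries 22.2 and 68.5 CPM and the week 4 libraries 13.7 and 21.8 CPM. Non-overlap held for 55.0% of tested genes at day 7, 41.7% at week 2 and 51.3% at week 4. The order of means was uninjured, day 3, week 4, day 7 and week 2, with overlapping values between every pair of neighbours. At week 2 the log2 fold change of Ednrb was 2.53 ± 0.69 (SE), 5.76-fold, with an adjusted p of 0.106 in edgeR and 0.00748 in DESeq2. Without week 2 replicate 1 edgeR called it (adjusted p = 0.032), and without week 2 replicate 2 the log2 fold change dropped to 1.49 (adjusted p = 0.654).

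The library with the most Ednrb, week 2 replicate 2, also had the highest pericyte and smooth muscle sum, 1318 CPM, and day 7 replicate 2, second for both, had 1090 CPM. Uninjured replicate 1 had the next sum, 1018 CPM, with 11.7 CPM of Ednrb. Rgs5 carried the sum of week 2 replicate 2, at 996 CPM. Without Rgs5 the sum was 322.1 CPM there and 428.4 CPM in day 7 replicate 2, against 258.4 to 281.2 CPM in uninjured libraries. Kcnj8 and Abcc9, markers of the same list, were lower in week 2 replicate 2 (5.63 and 15.75 CPM) than in both uninjured libraries (34.7 CPM or more and 27.0 CPM or more). Of the 11 markers, 7 had a higher and 4 a lower mean at week 2 than in uninjured libraries, with a median log2 fold change of 0.389. edgeR called none of the 11 at week 2, where 4 had an unadjusted p under 0.05 and DESeq2 called 3. Week 2 replicate 2 carries a library code whose first letter differs from that of the other RNA libraries, and the labels do not say what the letter marks. The 8 Schwann cell markers, another cell type known for Ednrb, summed to 102 to 186 CPM in uninjured libraries and 32.6 to 73.7 CPM later. Cdh19 made up 83.3% and 96.9% of the uninjured sums. Without Cdh19 the Schwann sums were 16.95 and 5.843 CPM in uninjured libraries. They were then 17.19 CPM in day 7 replicate 2, 15.36 CPM in week 2 replicate 2 and 0.2772 to 9.53 CPM in the other later libraries. A list of 6 mesothelial markers summed to 148 and 34.6 CPM in week 2 replicates 1 and 2 against 5.52 to 7.46 CPM in uninjured ones. The part of these cells in the Ednrb values was not tested. The log2 ratio of Ednra to Ednrb averaged 2.80 ± 1.26 (SD, n = 2) in uninjured libraries and 1.90 ± 1.18 (SD, n = 8) after MI, which an exact two-sided permutation test did not separate (p = 0.267, adjusted p = 0.644 over 3 ratios).

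The Ednrb start was the one start of the 6 with a RefSeq promoter entry whose peak was not constant. A peak within 500 bases of it was absent from both uninjured lists, present in both lists at day 3, day 7 and week 2, and present in 1 of 2 at week 4. The authors' fold enrichment was 6.96 and 10.2 at day 3, 6.17 and 6.46 at day 7, 7.97 and 5.31 at week 2 and 3.78 in week 4 replicate 1. These peaks lay at percentiles 53.3 and 67.9 of fold enrichment in the day 3 lists, 53.6 and 59.4 at day 7, 56.2 and 40.4 at week 2 and 21.6 at week 4. The lists differed in length, which moves with whether a peak of middle or low rank is listed: 63882 and 71878 peaks in uninjured, 105647 and 107774 at day 3, 93661 and 88250 at day 7, 77885 and 79654 at week 2 and 69207 and 70123 at week 4. The part of list length in this gain was not tested. A gain of this kind, in both libraries of a time and in neither uninjured library, was seen at 4.74% of 32580 RefSeq starts at day 3, 2.43% at day 7 and 1.31% at week 2, and at all 3 times for 0.912%; at week 4, when Ednrb did not qualify, it was 0.641%. A start peak was listed in 7 of 10 libraries, and in 6 when only peaks with a −log10 q of 5 or more were kept.

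Of the other regions in the Ednrb window, 1 was gained at the same 3 times as the start. Over all merged regions, 17.2% were gained at day 3, 9.28% at day 7 and 5.08% at week 2. The window held 6 merged regions, of which 3 were gained at day 3: the start, a region of 1020 bases inside the gene 3.2 kb from the start, and one of 1930 bases 27.4 kb from the start, near the far end of the gene (chr14:103815380-103817309). The last was present in both lists at day 3, day 7 and week 2 and in none of the uninjured or week 4 lists, and the middle one in both day 3 lists and day 7 replicate 2. A region 65.6 kb from the start, beyond the gene, had a peak in all 10 libraries. It lay at percentiles 50.1 and 57.0 of the uninjured lists, 82.7 and 85.8 at day 3 and 55.9 to 80.9 later. The part of list length in the gains of this window was not tested. Peaks in the window numbered 1 and 1 in the uninjured lists, 4 and 5 at day 3, 5 and 5 at day 7, 3 and 3 at week 2, and 2 and 1 at week 4.

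**Figure D4:**
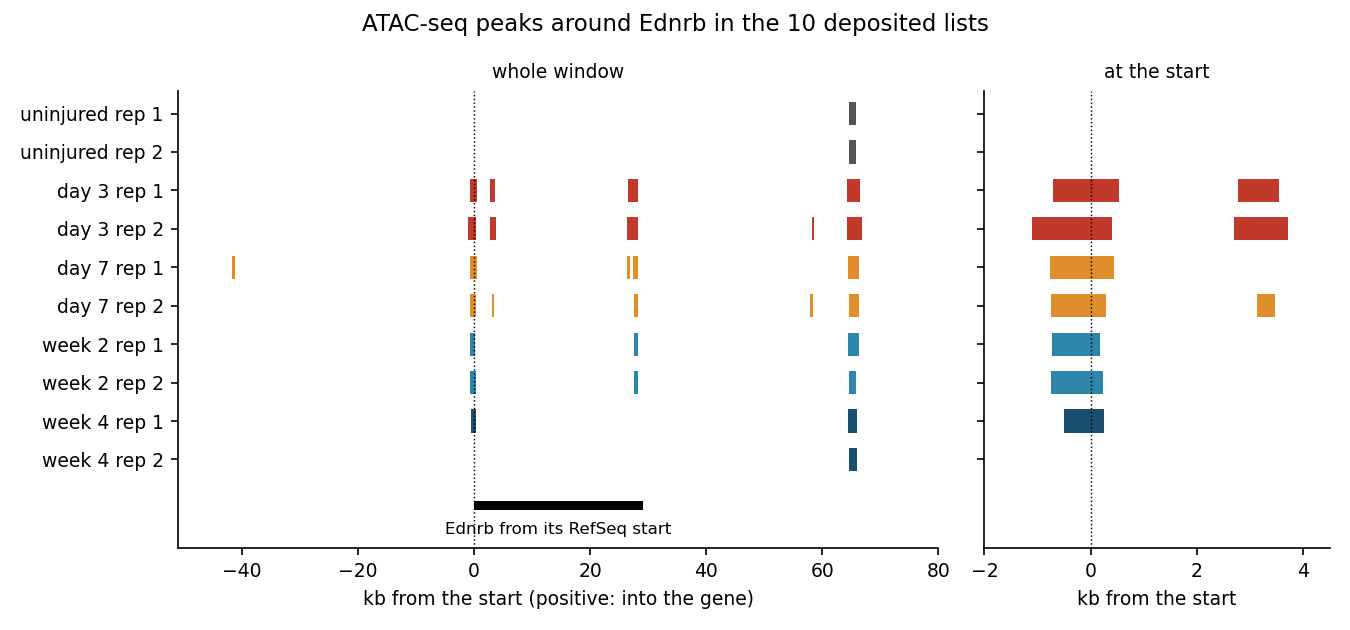
ATAC-seq peaks of the 10 lists around Ednrb, 1 row a library, against distance in kb from the RefSeq start (left, whole window; right, the start). Bars are peaks to scale; no bar crosses 0 in the 2 uninjured libraries or week 4 replicate 2, and the bar farthest to the right, beyond the far end of the gene, is in all 10.

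The 250 bases before each endothelin receptor start are shown side by side because the peak there was constant for one receptor and gained for the other. Both are from RefSeq (GRCm38.p6): Ednra at chr8:77724453-77724702 and Ednrb at chr14:103843702-103843951, both minus strand and written in the direction of transcription. The deposited span of Ednrb reaches 701 bases before the RefSeq start, so the window lies inside that span. No letters are in capitals, since neither window held any of the motifs searched.
Ednra: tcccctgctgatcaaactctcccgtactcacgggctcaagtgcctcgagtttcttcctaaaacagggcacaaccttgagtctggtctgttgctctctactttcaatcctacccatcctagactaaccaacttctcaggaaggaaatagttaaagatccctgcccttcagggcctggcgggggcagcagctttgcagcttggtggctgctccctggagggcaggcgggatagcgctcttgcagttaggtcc
Ednrb: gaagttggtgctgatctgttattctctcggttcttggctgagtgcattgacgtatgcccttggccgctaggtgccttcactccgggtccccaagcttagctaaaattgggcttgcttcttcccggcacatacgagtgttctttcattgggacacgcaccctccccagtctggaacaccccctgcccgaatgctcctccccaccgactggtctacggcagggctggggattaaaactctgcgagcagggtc
GC content was 54.8% for Ednra and 56.8% for Ednrb, with 6 and 11 CpG, against medians of 52.4% and 6 over all windows. That no motif was found says only that these letters are not in these 250 bases. The Ednra start peak was in all 10 lists, at percentiles 75.9 to 88.4.

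Of 6 other genes on the endothelin list, 3 were tested. edgeR called 1 of the 3 at each of day 3, day 7 and week 2, against 11.8%, 7.15% and 1.89% of all tested genes. At week 4 it called none of the 3, against 2.32%. Ece1, the enzyme that releases active endothelin, held 296.3 and 228.2 CPM in the uninjured libraries, 102.3 and 90.6 CPM at day 3, 122.4 and 166.6 CPM at day 7, 97.4 and 110.5 CPM at week 2 and 204.5 and 217.6 CPM at week 4. All 8 later libraries lay below both uninjured ones. Ece1 fell at day 3 by 1.44 ± 0.23 (log2, SE; adjusted p = 0.00202, edgeR), a call kept with each library left out, and was lower at day 7 and week 2 (log2 fold change -0.86 and -1.33, adjusted p = 0.04 and 0.00871). The day 7 call was lost without either library of the uninjured, day 7 or week 4 group, and the week 2 call without uninjured replicate 1. At week 4 the log2 fold change was -0.31 (adjusted p = 0.633). Edn1, endothelin-1, held 14.6 and 35.1 CPM in uninjured libraries, 12.4 and 27.8 CPM at day 3, 26.5 and 18.4 CPM at day 7, 78.7 and 60.3 CPM at week 2 and 36.4 and 28.7 CPM at week 4. Its log2 fold change at week 2 was 1.49 ± 0.48 (SE, adjusted p = 0.185), so the highest Edn1 and the highest Ednrb mean fell in the same group, neither called. Edn2 and Edn3 had at most 17 and 9 counts in any library.

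Genes that carry or damp the signal of these G protein-coupled receptors were given by a list of 28, all tested. edgeR called 1 higher and 1 lower at day 3, 2 higher and 1 lower at day 7, 1 higher at week 2 and 3 higher at week 4. Of all tested genes, 11.8%, 7.15%, 1.89% and 2.32% were called at these times. In the same order 6, 7, 5 and 7 of the 28 had an unadjusted p under 0.05, and DESeq2 called 4, 5, 1 and 5. Rgs4, which shortens signalling by the G proteins that AT1, ETA and ETB use, rose at all 4 times: it held 79.2 and 32.0 CPM in uninjured libraries and 115.2 to 450 CPM in the 8 later ones, with the 2 day 7 libraries highest at 397.6 and 450 CPM. Its log2 fold change was 2.93 ± 0.38 (SE) at day 7 (adjusted p = 0.000956, edgeR), kept with each library left out, and 1.22, 2.47 and 1.59 at day 3, week 2 and week 4 (adjusted p = 0.0492, 0.00499 and 0.0454). The Rgs4 call at week 2 was lost without week 2 replicate 2. The day 3 call held only when uninjured replicate 1 or week 4 replicate 2 was the library dropped, and the week 4 call only when uninjured replicate 1 was.

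Rgs3, a relative of Rgs4, rose at day 7 and week 4 (log2 fold change 1.47 and 1.51, adjusted p = 0.0177 and 0.0311). The day 7 call did not hold when day 7 replicate 2 or uninjured replicate 1 was dropped, nor the week 4 call without either library of the uninjured or week 4 group. Nfatc1, a transcription factor that calcium signals send to the nucleus, rose at week 4 (2.31 ± 0.38 SE, adjusted p = 0.0081), kept with each library left out. Rgs5, a pericyte marker as well as a regulator, fell at day 3 (-2.84 ± 0.75 SE, adjusted p = 0.049), and was lost without either library of the uninjured, day 3, day 7 or week 4 group. The remaining call was Itpr1 at day 7, an intracellular calcium channel, which was lower by 1.02 on the log2 scale and is named after its values were seen.

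A list of 32 other receptors for vasoactive mediators, 27 of them tested, gives the setting. edgeR called 3 lower at day 3, 1 higher and 4 lower at day 7, and 1 lower at each of week 2 and week 4. Of all tested genes, 11.8%, 7.15%, 1.89% and 2.32% were called at these times. In the same order 6, 10, 5 and 10 of the 27 had an unadjusted p under 0.05, and DESeq2 called 6, 7, 3 and 1. Ramp2, a partner protein of the adrenomedullin receptor, fell at day 3, day 7 and week 2 (log2 fold change -2.01, -1.85 and -1.53, adjusted p = 0.00289, 0.00719 and 0.0382, edgeR). The Ramp2 call at day 3 was kept with each library left out, that at day 7 was lost without day 7 replicate 2, and that at week 2 without either library of the uninjured or week 2 group. Ptgfr, the prostaglandin F receptor, fell at day 3 and day 7 (-2.19 and -1.92, adjusted p = 0.00558 and 0.0166), the second not holding when day 7 replicate 2 or uninjured replicate 2 was dropped. Aplnr, the apelin receptor, rose at day 7 by 3.49 ± 0.52 (log2, SE; adjusted p = 0.00185), kept with each library left out. Aplnr is also expressed by endothelial cells, whose marker sum was 854 to 1122 CPM at day 7 against 573 to 730 CPM in uninjured libraries; their part was not tested. Further calls were Calcrl at day 7 and week 4 and Lpar1 at day 7, all lower.

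The genes whose log2 CPM was most like each of the 7 over the 10 libraries were taken from 9007 genes with a mean log2 CPM of 3 or more. Ace was most like Pink1 (Pearson r = 0.975), Ndrg1 (0.974) and Camkk2 (0.969), and the genes most like Npr2 included Zbtb46 (0.976) and Stx3 (0.961). Pink1, a mitochondrial kinase, shared the shape of Ace, with a mean of 25.3 CPM at day 3, 75.4 CPM in uninjured libraries and 206.4 CPM at week 4. Ednra was most like Grb10 (0.913), Man2b1 (0.892) and Gorab (0.889). Ednrb was most like Pdgfa (0.890), which encodes a growth factor for fibroblasts and pericytes, Gcnt2 (0.877) and Hist2h2aa1 (0.873). The nearest genes to Agtr1a were Rabgef1 (0.911), Zc3h11a (0.905) and Ezh2 (0.893), those to Npr1 Wdfy2 (0.942), Zbtb14 (0.926) and Mgst3 (0.883), and those to Npr3 Prpf38b (0.888), Mzt2 (0.857) and Atg10 (0.844). Among the 7 genes, Ace and Npr2 were the most alike (0.74). With 10 libraries and 9007 genes, such values are a maximum over many, and they are given as a description only.

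Near the 7 genes, 28 of the 91 merged regions (30.8%) had a peak in all 10 libraries, against 27.2% of all merged regions. At day 3, 19 of the 91 were gained, that is, had a peak in both libraries of the time and in neither uninjured library, which is 20.9% against 17.2% of all regions. At day 7, 13 were gained (14.3% against 9.28%), at week 2, 5 (5.49% against 5.08%) and at week 4, none (against 2.76%). These shares differed from the background by few regions each, and no test was made. Regions lost, with a peak in both uninjured libraries and neither of the time, numbered 1 at day 7 and 1 at week 4 (backgrounds 2.37% and 3.68%), and none at day 3 or week 2 (backgrounds 1.09% and 2.66%). It was the same region both times, chr11:106025951-106027789, 58.9 kb from the Ace start and nearest to the start of Dcaf7.

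**Figure D5:**
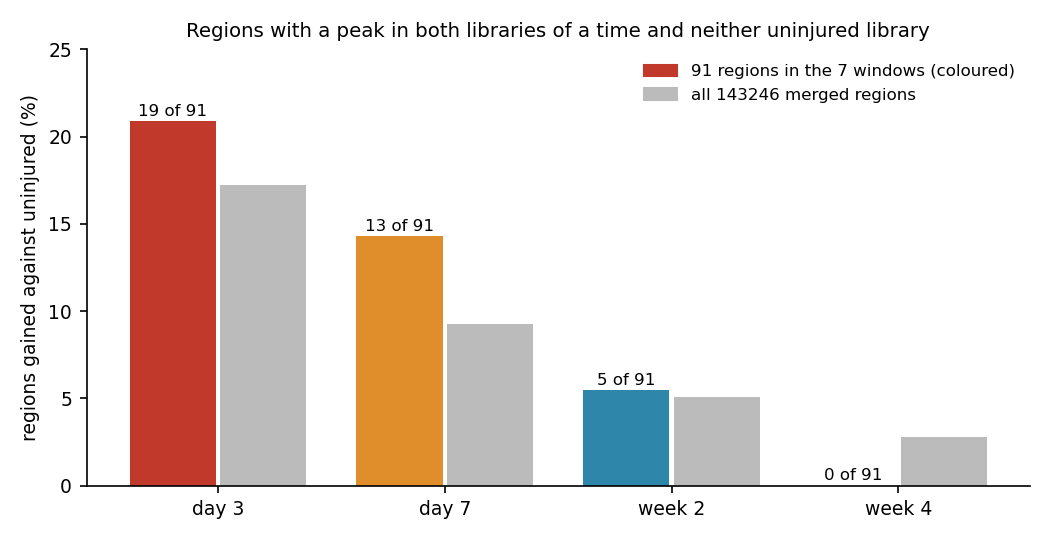
Share of merged ATAC-seq regions (%) gained against uninjured at each time, for the 91 regions in the windows of the 7 genes (coloured) and all 143246 regions (grey). The shares are 20.9, 14.3, 5.49 and 0% near the 7 genes and 17.2, 9.28, 5.08 and 2.76% of all regions, in order of time.

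Gained regions were found in all 7 windows, with 1 of 19 regions near Npr1 and 6 of 19 near Ednra gained at some time. Near Ednra 5 were gained at day 3, 3 at day 7 and 1 at week 2, against 17.2%, 9.28% and 5.08% of all merged regions. No share over all regions was taken for a gain at some time, so counts of that kind have no background here. In the Ednra window the gained region of highest rank within its list lay 13.6 kb before the start (chr8:77736803-77739400), with a peak at percentiles 69.3 and 69.5 of the day 3 lists; it was gained at day 3 and day 7 and present in 6 libraries. Next by rank were regions 47.8 kb before the start, gained at day 3, and 40.0 kb before it, gained at day 3, day 7 and week 2. Peaks in the Ednra window numbered 4 and 4 in the uninjured lists, 10 and 10 at day 3, 12 and 8 at day 7, 7 and 9 at week 2, and 6 and 8 at week 4. Per 10000 peaks of the list these were 0.626 and 0.556 in uninjured, 0.947 and 0.928 at day 3 and 1.28 and 0.907 at day 7. The part of list length in these counts was not tested.

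The Ace window held 17 regions, of which 8 were constant and 4 were gained at day 3, against 27.2% and 17.2% of all merged regions. The gained region nearest to the start lay 33.9 kb from it, beyond the gene's far end. By replicate 1 the highest rank lay 40.2 kb from the start, nearest to the start of Kcnh6, at percentiles 64.1 and 39.4 of the day 3 lists. In day 3 replicate 2 the gained region 36.3 kb before the start ranked higher, at percentile 60.7. Peaks in the Ace window were 11 and 12 in uninjured lists, 17 and 17 at day 3 and 12 and 13 at week 4, which per 10000 peaks of the list is 1.72 and 1.67, 1.61 and 1.58, and 1.73 and 1.85. Agtr1a had 7 regions; a peak lay at the lower end of its span in all 10 lists and none at the upper end, and 2 regions inside the gene, 6.0 and 32.2 kb from that end, were gained at day 3. The Npr1 window had 19 regions, 10 of them constant, and 1 gained at day 7, 27.2 kb before the start and nearest to Chtop. The Npr2 window had 13 regions, with 3 gained at day 3, 2 at day 7 and 1 at week 2, all outside the gene. By replicate 1 the highest rank lay 34.7 kb from the start, nearest to Fam221b. That region was at percentile 30.8 of day 3 replicate 1 and 5.1 of day 3 replicate 2. In the Npr3 window of 10 regions, 2 were gained at day 3, 3 at day 7 and 1 at week 2, against 17.2%, 9.28% and 5.08% of all merged regions. Several were low in a list, such as 1 at percentile 0.4 of day 3 replicate 1. The one of highest rank by replicate 1, 9.8 kb before the start (chr15:11916363-11918043), had peaks in both lists at day 7 and week 2. A region near a gene is not thereby shown to act on it, and gained regions in these windows also lay near other genes' starts.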

How the data were processed

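There were 10 RNA-seq and 10 ATAC-seq libraries, 2 per assay in each of 5 groups. The authors deposited 1 table of expected counts per gene for the 10 RNA libraries, some of them fractional and none normalized; 7472 of 25746 genes had no count. For each ATAC library the authors deposited a list of peaks with a fold enrichment (a ratio), −log10 p and −log10 q values and a score. The submitters' processing notes name Trim Galore, FastQC, STAR 2.5.3a, DESeq2, Bowtie2 and MACS2 with the builds mm10 and GRCm38. No source used here gives the counting program, its use of strand or the peak settings, and peaks were deposited per library, not for pooled libraries.

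Expected counts were rounded, filtered with filterByExpr, scaled by TMM and fitted over all 10 libraries with edgeR 4.0.16 (robust quasi-likelihood test, 5 residual degrees of freedom, Benjamini-Hochberg adjustment over all tested genes). DESeq2 1.42.0 was an alternative, with RLE scaling, no filter, 2-group fits, a replicate block and each library left out. Peaks on chromosomes 1 to 19 and X were merged over the 10 lists where they shared a base. Scripts were tested on simulated data. The 7 genes, the gene lists and the tests were chosen with earlier results of these data known. Named by rule were the 7 genes, the ligands and processing enzymes, and up to 4 other called genes a list, largest change first. Genes like each of the 7 were the 3 with the highest correlation. Regions were ranked by −log10 q in the list of replicate 1 of their group. Some genes that this rule names are not reported here. RNA depth was 16397211 to 21043997 counts a library; read depth is not in the peak lists. Sequences are RefSeq's (GRCm38.p6) for 6 of the 7 genes; the Agtr1a promoter was not used here, so both ends of its span were read for peaks.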

Additional observations from a re-analysis of the deposited data

Results flagged for a closer look

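The change of Ace against uninjured hearts differed between times: the week 4 and day 3 groups differed from each other by a log2 fold change of 2.69 (adjusted p = 0.00336, edgeR), with both week 4 libraries above both day 3 libraries. The change of Npr2 also differed between those times, by 2.18 (adjusted p = 0.0123), with both week 4 libraries above both day 3 libraries; that call was lost without day 3 replicate 2 or week 4 replicate 2. Both effects share the 2 uninjured libraries as reference, which drop out of the comparison of the times. No explanation was tested.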

How the results depend on the processing

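With 2 libraries a group, single libraries decide many calls. Of 491 alternative values for the 7 genes' fold changes, 437 kept direction and side of the threshold, 21 passed it newly, 11 no longer passed and 22 changed sign; of 420 for the called list genes, 332 kept both and 88 no longer passed. The cause was not tested for any of them, beyond fewer samples where libraries were left out. Most of the 491 values belong to fold changes not called in the main fit, so most of the 437 are uncalled values that stayed uncalled. All 11 that no longer passed belong to Npr2 at day 3, Npr2 at week 4 against day 3 and Ednra at day 7.

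Fold changes below are log2. For Ace at day 3 the value was -1.24 without a filter on low counts and with the replicate block, and -1.19 in the fit of the 2 groups alone and in DESeq2; all 4 passed the threshold, as did those at week 4 (1.54, 1.48, 1.52 and 1.51 in the same order). Ednrb passed without the filter at day 7 (1.61), at week 2 (2.53) and for the mean of 4 times (1.54), and in DESeq2 at week 2 (2.56) and for the mean (1.57). Ednra passed without the filter for the mean (0.752), and Agtr1a passed at week 4 against day 3 without the filter (-2) and in DESeq2 (-2.09). In the fit of the 2 groups alone Npr2 at day 3 (-2.01) and Ednra at day 7 (1.36) no longer passed. Agtr1a at day 7, which was at 0.000151, changed sign with RLE scaling (-0.017), without the filter (-0.0392), with 2 groups (-0.0329) and in DESeq2 (-0.0166).

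Leaving out each library gave these ranges. At day 3 Ace ran from -1.66 to -0.831 and Npr2 from -2.97 to -1.43. At day 7 Agtr1a ran from -1.32 to 0.661, Ace from -0.341 to 0.0632, Npr2 from -0.415 to 0.101, Npr3 from -4.1 to 2.92 and Ednra from 0.994 to 1.66. At week 2 Agtr1a ran from -0.691 to 0.432, Ace from -0.895 to 0.451, Npr3 from -2.27 to 1.63 and Ednrb from 1.49 to 3.5. At week 4 Ace ran from 1.22 to 1.76, and Npr2 at week 4 against day 3 from 1.62 to 3.16. The log2 ratio of Npr3 to Npr2 ran from -2.57 to 0.807. In several 2-group fits Npr3 was filtered out and has no value.

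Counts of genes called over the whole table ranged from 677 to 2078 at day 3, 312 to 1315 at day 7, 134 to 450 at week 2, 101 to 491 at week 4 and 691 to 2353 for week 4 against day 3 when 1 library was left out. DESeq2 called 2829, 1998, 790, 866 and 3152, no filter gave 1846, 796 and 971 at day 7, week 2 and week 4, and the 2-group fit 635, 171 and 653. Replicate numbers did not pair the samples: deviations of same-numbered libraries correlated at -0.0141 to 0.0301 over 10 pairs of groups. The replicate block left the counts at 1784, 1109, 304, 362 and 2027. Under it the calls of Rgs4 at day 3 (1.21, adjusted p = 0.0788) and week 4 (1.58, 0.0832), Rgs5 at day 3 (-2.84, 0.0919) and Nppa at week 4 (2.86, 0.0557) no longer passed.

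Some alternative settings for the regions do not count over the 91. The 10 kb setting takes only the regions within 10 kb of the genes, which are fewer. The setting on q merges only the peaks that pass it. No share over all regions was taken for the alternatives, so a lower count is not by itself a gain lost. Gains at day 3 were 6 within 10 kb of the genes. Gains at day 7 were 7 with −log10 q of 5 or more, 6 within 10 kb and 8 where a peak had to cover 50% of the merged region, and at week 2 they were 2, 3 and 2. Losses at day 7 were 0, 0 and 2, at week 2 with the q and 50% settings 1 and 5, and at week 4 2, 0 and 4. With 1 library left out, gains ran from 13 to 24 at day 7, 5 to 12 at week 2 and 0 to 10 at week 4. Losses ran from 0 to 1 at day 3, 1 to 3 at day 7, 0 to 4 at week 2 and 1 to 4 at week 4. Leaving a library out only loosens the rule for a gain or a loss. These counts could thus only stay or rise, and the ranges do not measure how stable the calls are. Low counts and scatter within pairs limit Npr3, at 0 to 82 counts, and low counts limit Nppb, Agt and Corin.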
